A study of Homo sapiens with 20 samples.

Results

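The genes described here belong to the PRAMEF, TRIM, MBD3L and RFPL families, some of whose genes the human embryo transcribes around the first cleavage divisions. The genes described were chosen by name and not by stage, though with earlier results of these data known: every row annotated as protein coding whose symbol begins with PRAMEF, TRIM43, TRIM48, TRIM49, TRIM51, TRIM53, TRIM64, TRIM77, MBD3L or RFPL was taken. That gave 48 of the 60232 genes in the table, with 22 PRAMEF, 14 TRIM, 6 MBD3L and 6 RFPL genes. RNA was sequenced from 5 gastric cancer cell lines kept for 72 h in DMSO, the solvent control, or in DCB (decitabine), a cytidine analogue that traps DNA methyltransferases and lowers DNA methylation as cells divide. YCCEL1 and SNU719 carry Epstein-Barr virus (EBV+) and AGS, HGC27 and SNU16 do not (EBV-). A CpG island methylator phenotype (CIMP+) is given for YCCEL1, SNU719 and AGS, and HGC27 and SNU16 lack it (CIMP-). Each line and treatment had 2 libraries, which makes 10 groups and 20 libraries, and the genotype of every line is given as wild type. The CIMP status comes from the paper, whose methods name MKN74 where the sample labels name HGC27, and the labels were followed. Whether both libraries of a group came from separate cultures is not stated. The p-values therefore measure only how far these libraries spread, pooled for each gene over all 10 groups, and that spread may be technical.

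The values are estimated counts that were normalized before deposit, called normalized values here. One read was worth a step that was estimated for each library, and by this step the libraries held 7101709 to 10731382 read equivalents, and the medians were 8900753 with DMSO and 8765704 with DCB. HGC27 stood apart from the other lines in its markers. EPCAM, an adhesion molecule of epithelial cells, lay between 22.4 and 38.5 in its 4 libraries and between 4458.5 and 13782.5 in the other 16. The fibroblast collagen gene COL1A1 lay between 7983.4 and 8877.3 in HGC27 and at or below 1941.0 elsewhere. The leukocyte marker PTPRC did not exceed 8.8 in any library. What part these differences had in the results below was not tested.

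Transcription of the human genome starts in earnest during the cleavage stages, and the homeobox factor DUX4, encoded in a subtelomeric repeat that somatic cells keep silent, is one of the factors that switches on genes of that time. The PRAMEF, TRIM43, TRIM49, MBD3L and RFPL4 genes are known as targets of DUX4, and most of them lie in clusters of recent tandem copies. PRAMEF proteins are leucine-rich repeat proteins related to the cancer-testis antigen PRAME. The TRIM proteins of this set are of the RING-finger ubiquitin ligase family, and TRIM43 has been described as a restriction factor against herpesviruses. MBD3L proteins resemble the NuRD subunit MBD3 without its methyl-CpG binding domain, and RFPL proteins resemble the ret finger protein.

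The 48 genes lay in 8 clusters of at least 2 members, with neighbours under 1000000 bases apart, and 3 genes stood alone. On GRCh38, the build whose coordinates the table uses, the 22 PRAMEF genes filled one stretch of chromosome 1 (chr1:12773738-13421328). The TRIM genes lay on chromosome 2 (chr2:95477164-95599778, TRIM43B and TRIM43) and in 3 stretches of chromosome 11 (chr11:48975324-49059112, chr11:55262155-55891810 and chr11:89710299-90042025). All MBD3L genes except MBD3L1 lay within chr19:7018969-7058640. RFPL4A and RFPL4AL1 were neighbours on chromosome 19 (chr19:55759014-55773420), RFPL2 and RFPL3 on chromosome 22 (chr22:32190435-32361161), and RFPL1 and RFPL4B stood alone.

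Promoter sequences were taken from RefSeq on GRCh38.p14, as 250 bases before and 50 bases after each gene's start, and 40 of the 48 genes had such a window. The DUX4 motif was searched on both strands as TAA, any 3 bases, then AATCA, which includes the stricter forms with TTT or TCT between. It was found in 14 of the 40 genes (35.0%), against 1.11% of all 27305 genes with a window and 0.888% of all 35116 windows. The form with TTT was found in 7 of the 40 (17.5%) and in 0.073% of all genes with a window, and that with TCT in RFPL4AL1 and in 0.037% of all genes. By family, the motif was found in 5 of 6 MBD3L, 5 of 11 TRIM, 2 of 5 RFPL and 2 of 18 PRAMEF genes. Many of these windows are copies of one another, so the genes are not independent cases. The 250 bases before the start are shown for members of each family, to show where the motif sits and how closely the copies resemble each other. Capitals mark the motif, or its reverse complement (TGATT, any 3 bases, then TTA) where it is on the opposite strand. PRAMEF12 is shown as a member without a match.
TRIM48, chr11:55261905-55262154, plus strand: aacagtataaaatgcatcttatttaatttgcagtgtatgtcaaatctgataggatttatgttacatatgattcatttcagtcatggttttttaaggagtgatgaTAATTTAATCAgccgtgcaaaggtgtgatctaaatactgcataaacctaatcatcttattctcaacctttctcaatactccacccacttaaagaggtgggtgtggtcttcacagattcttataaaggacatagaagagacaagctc
TRIM51, chr11:55883047-55883296, plus strand: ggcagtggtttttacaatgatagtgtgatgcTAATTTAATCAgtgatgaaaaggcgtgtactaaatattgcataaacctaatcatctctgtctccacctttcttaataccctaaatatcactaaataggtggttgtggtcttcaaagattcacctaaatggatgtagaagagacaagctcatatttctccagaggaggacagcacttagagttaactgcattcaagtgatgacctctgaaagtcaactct
MBD3L2, chr19:7049071-7049320, plus strand: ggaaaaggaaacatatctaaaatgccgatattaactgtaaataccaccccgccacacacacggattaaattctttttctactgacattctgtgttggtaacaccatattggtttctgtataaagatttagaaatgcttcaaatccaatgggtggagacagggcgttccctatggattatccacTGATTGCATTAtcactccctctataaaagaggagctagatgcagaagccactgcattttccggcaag
MBD3L5, chr19:7030328-7030577, plus strand: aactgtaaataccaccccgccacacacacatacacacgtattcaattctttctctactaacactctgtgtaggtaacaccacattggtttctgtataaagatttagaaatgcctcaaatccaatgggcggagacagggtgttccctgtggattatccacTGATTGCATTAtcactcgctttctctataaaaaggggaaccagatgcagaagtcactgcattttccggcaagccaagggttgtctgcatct
RFPL4A, chr19:55758847-55759096, plus strand: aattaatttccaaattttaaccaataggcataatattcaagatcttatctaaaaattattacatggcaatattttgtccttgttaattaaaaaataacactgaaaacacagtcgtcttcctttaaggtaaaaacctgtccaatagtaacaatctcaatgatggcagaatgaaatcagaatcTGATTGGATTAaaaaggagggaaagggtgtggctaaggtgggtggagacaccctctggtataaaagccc
RFPL4AL1, chr19:55768868-55769117, plus strand: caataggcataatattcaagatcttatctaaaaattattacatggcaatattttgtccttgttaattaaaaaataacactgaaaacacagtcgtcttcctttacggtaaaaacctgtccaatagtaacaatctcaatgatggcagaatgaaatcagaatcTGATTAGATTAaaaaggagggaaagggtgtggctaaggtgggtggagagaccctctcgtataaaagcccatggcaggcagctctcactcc
PRAMEF7, chr1:12916360-12916609, plus strand: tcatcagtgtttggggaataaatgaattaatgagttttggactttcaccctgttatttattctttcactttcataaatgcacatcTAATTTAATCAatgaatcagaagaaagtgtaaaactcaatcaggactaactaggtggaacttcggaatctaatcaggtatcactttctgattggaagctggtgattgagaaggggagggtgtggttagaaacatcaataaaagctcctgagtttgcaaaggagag
PRAMEF8, chr1:13285138-13285387, minus strand: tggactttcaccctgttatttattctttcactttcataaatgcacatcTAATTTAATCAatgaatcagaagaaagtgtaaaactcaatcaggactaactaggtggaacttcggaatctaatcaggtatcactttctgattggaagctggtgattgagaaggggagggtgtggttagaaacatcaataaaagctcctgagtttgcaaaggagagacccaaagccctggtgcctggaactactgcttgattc
PRAMEF12, chr1:12773488-12773737, plus strand: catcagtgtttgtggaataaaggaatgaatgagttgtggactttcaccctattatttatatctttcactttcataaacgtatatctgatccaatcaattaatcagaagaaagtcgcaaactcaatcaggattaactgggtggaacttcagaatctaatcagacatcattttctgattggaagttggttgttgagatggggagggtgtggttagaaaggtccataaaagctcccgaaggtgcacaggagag

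In TRIM48 and TRIM51 the match had the same letters and lay 146 and 219 bases before the start. In MBD3L2 and MBD3L5 both were on the opposite strand, within the range of 54 to 91 bases before the start that held for all 5 MBD3L genes with a match. RFPL4A and RFPL4AL1 differed by 1 letter inside the motif, and the windows of PRAMEF7 and PRAMEF8 shared a long stretch that was placed at different distances from the start. The box TATAAA was found in 19 of the 40 genes (47.5%), against 13.99% of all genes with a window and 11.5% of all windows, and overlapped none of the DUX4 matches. CACGTG, the E-box, was found in 0 of the 40, against 8.78% of all genes and 7.26% of all windows. The windows held few CpG dinucleotides, the sites of DNA methylation: the median was 3 per window against 14 over all windows, and 40 of the 44 member windows held at most 8, as did 41.6% of all windows. The exceptions were MBD3L1, both windows of RFPL2, and RFPL3, the last of which held 14. CACGTG itself holds a CpG, and for no motif was a share computed over windows of like CpG number or base composition. The contrasts with all genes are therefore not corrected for composition. A match or its absence describes these letters in this window only.

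In DMSO the family was close to silent. Of the 48 genes, 36 were listed at 0 in all 10 DMSO libraries, and 11 others did not exceed 2.89 in any of them. The exception was TRIM51GP, a TRIM51-like gene annotated as protein coding here, which stood at 21.9 and 30.2 in HGC27 in DMSO. Summed over all 48 genes, no DMSO library exceeded 32.1. In these bulk libraries, fewer cells with a transcript and less transcript per cell cannot be told apart.

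With DCB most of these genes were found in YCCEL1, SNU719 and AGS and few were found in HGC27 and SNU16. A gene was called when its adjusted p from limma was under 0.05 and its log2 difference exceeded 2. In YCCEL1, 37 of the 48 genes were called higher, where 7.99% of all 27350 tested genes were. In SNU719 it was 30 of 48 (6.38% of all genes), and in AGS 37 of 48 (9.02%). In HGC27 2 genes, RFPL2 and RFPL4B, were called higher (4.95%), or 1 without DCB replicate 1 of HGC27. With 5 instead of 1 added to each value before the log, the count fell to 19 in SNU719 and to 0 in HGC27. In SNU16 none was called (2.31%), and RFPL4B alone passed the adjusted p without the fold limit. By the adjusted p alone, 38, 33, 38, 3 and 1 members were higher in YCCEL1, SNU719, AGS, HGC27 and SNU16, against 14.6%, 13.5%, 18.5%, 14.7% and 4.5% of all genes. No member was called lower in any of these lines, where 0.197%, 0.249%, 0.636%, 0.618% and 0.135% of all genes were. Nor was any lower by the adjusted p alone (6.93%, 7.64%, 9.13%, 9.03% and 2.34% of all genes). Of the 48 genes, 40 had values high enough to be tested and the other 8 count as not called. Those are PRAMEF26, TRIM77 and MBD3L4, at 0 in all 20 libraries, and PRAMEF17, TRIM64C, TRIM49D2, MBD3L1 and RFPL3, whose values summed to 10 or less.

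**Figure D1:**
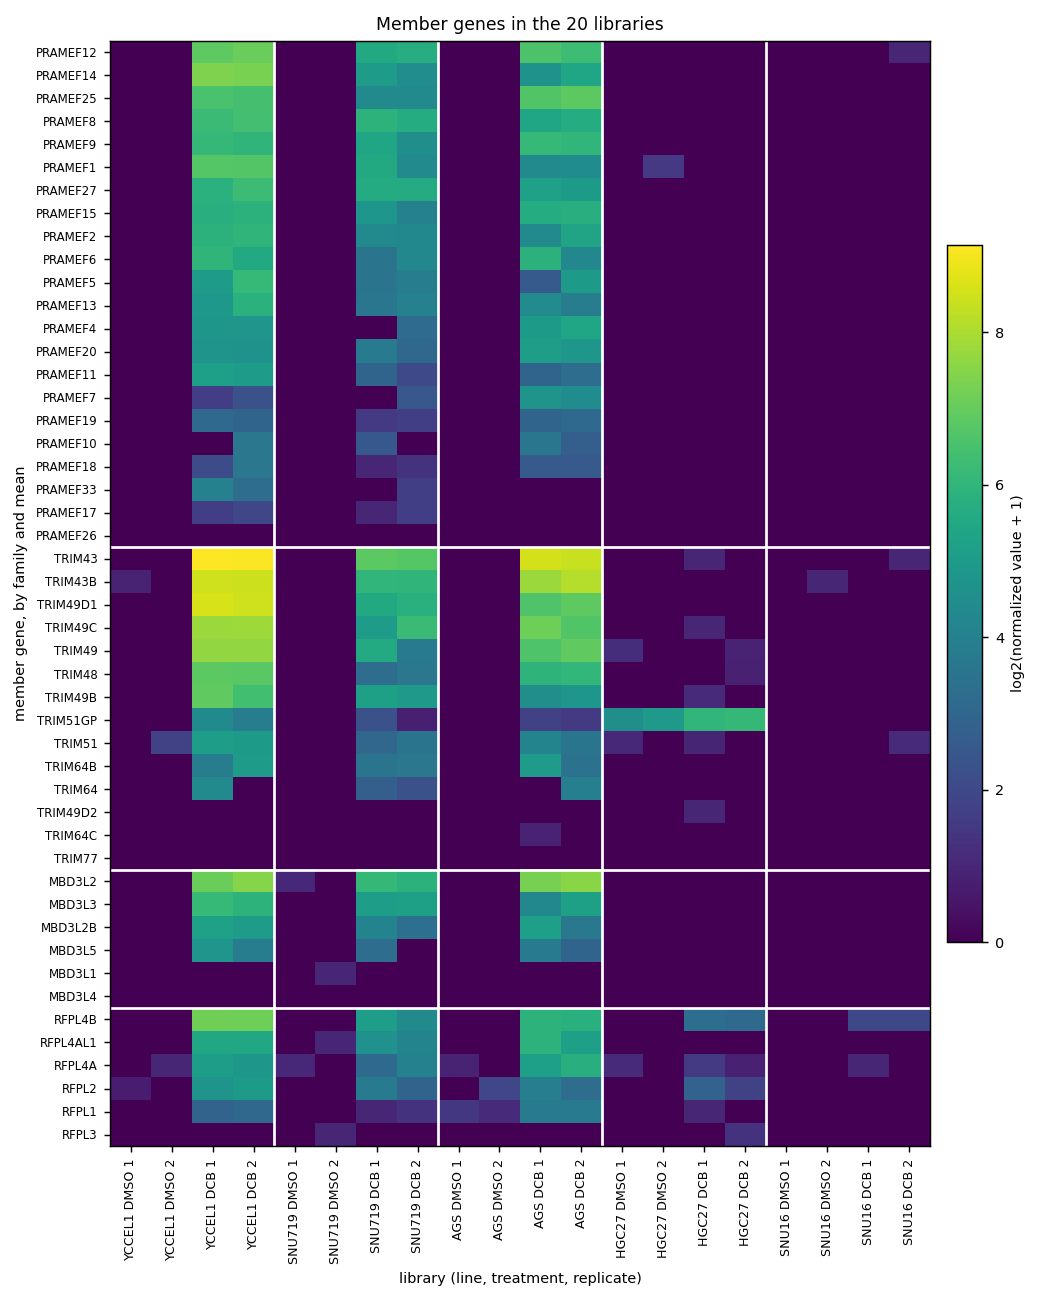
Normalized values of the 48 member genes (rows, grouped by family and ordered by mean) in the 20 libraries (columns, by line, treatment and replicate), coloured by log2(value + 1). The DCB columns of YCCEL1, SNU719 and AGS are filled for most rows, and TRIM51GP is filled in HGC27.

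The same genes recurred in the 3 CIMP+ lines. Of the 48, 28 were called higher in YCCEL1, SNU719 and AGS and in no other line, and RFPL2 and RFPL4B in those 3 and in HGC27. A further 5 (MBD3L5, PRAMEF4, PRAMEF18, PRAMEF19 and RFPL1) were called in YCCEL1 and AGS, 2 (PRAMEF33 and TRIM51GP) in YCCEL1 alone, and 2 (PRAMEF7 and PRAMEF10) in AGS alone. The mean response of the 3 CIMP+ lines exceeded that of the 2 CIMP- lines for 35 of the 48 genes, where 3.68% of all genes were called in that direction, and for no gene was it called smaller, where 0.534% of all genes were. That difference was tested within the one fit, whose error is the spread of libraries within groups and leaves out the spread between lines. The 2 groups of lines also differ in EBV in part and in every other property of the cell lines. The median DCB level over the 48 genes was 33.9 in YCCEL1, 11.2 in SNU719 and 23.4 in AGS, and 0 in HGC27 and SNU16. On the log2(value + 1) scale the median difference between DCB and DMSO was 5.12, 3.51, 4.51, 0 and 0 in these lines, against 0.09, 0.11, 0.12, 0.04 and 0.01 over all tested genes. Those medians depend on the added 1, since most members were at 0 in DMSO. With values under 3 reads set to 3 reads in each group, the median log2 ratios were 3.59, 1.88, 2.96, 0 and 0.

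TRIM43 and TRIM43B, neighbours on chromosome 2 that encode ubiquitin ligases of the early embryo, were listed at 0 or at most 0.99 in DMSO. TRIM43 (ENSG00000144015) stood with DCB at 568 and 548 in YCCEL1, at 115 and 105 in SNU719, and at 379 and 335 in AGS. In HGC27 it stood at 0.98 and 0, and in SNU16 at 0 and 0.98. The DCB libraries of the 3 CIMP+ lines lay above all others without overlap, and the adjusted p against DMSO was 2.3e-09, 5.9e-08 and 3.9e-09 (limma). TRIM43B stood at 358 and 351 in YCCEL1, at 63.4 and 62.6 in SNU719, and at 218 and 281 in AGS, and at 0 in the DCB libraries of both CIMP- lines. After DCB, TRIM43 was 5.04-fold higher in YCCEL1 than in SNU719 on the log2(value + 1) scale (log2 difference 2.33, SE 0.402, adjusted p = 0.00046). Its difference from AGS was not past the threshold (log2 difference 0.65, SE 0.402, adjusted p = 0.24). TRIM43B gave the same order of lines, with a 5.55-fold difference between YCCEL1 and SNU719 (log2 difference 2.47, SE 0.401, adjusted p = 0.00027) and a log2 difference of 0.52 between YCCEL1 and AGS (SE 0.401, adjusted p = 0.35).

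The TRIM48, TRIM49 and TRIM51 genes of chromosome 11 encode proteins of the same RING-finger family. TRIM49D1 (ENSG00000223417) stood with DCB at 387 and 355 in YCCEL1, at 46.2 and 55.5 in SNU719, and at 99.2 and 117 in AGS, and at 0 in every other library. The 3 lines did not overlap, YCCEL1 was 7.19-fold above SNU719 (log2 difference 2.85, SE 0.305, adjusted p = 6.4e-06) and 3.42-fold above AGS (log2 difference 1.78, SE 0.305, adjusted p = 0.00033). TRIM49D2 has no 76-base word that is not also in TRIM49D1, and it was listed at 0 in those lines, so the value of TRIM49D1 may hold reads of both. TRIM48, of whose transcript words 88.6% are found in no other gene, stood at 114 and 110 in YCCEL1, at 8.64 and 11.3 in SNU719, and at 61.4 and 65.5 in AGS. It showed the largest fold between YCCEL1 and SNU719 of the members above 0 in all 4 of those DCB libraries, 10.4-fold (log2 difference 3.38, SE 0.339, adjusted p = 3.5e-06). Between AGS and SNU719 it was 5.91-fold higher in AGS (log2 difference 2.56, SE 0.339, adjusted p = 3.5e-05).

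TRIM49 and TRIM49C are close copies, and their values moved against each other between the SNU719 libraries. TRIM49 stood there at 47.8 and 12.7 and TRIM49C at 31.7 and 73.9, while their sum stood at 79.5 and 86.6. In YCCEL1 TRIM49 stood at 200.1 and 203.9 and TRIM49C at 219.6 and 221.9. In AGS TRIM49 stood at 97.6 and 119 and TRIM49C at 139 and 100.1. Both genes were thus highest in YCCEL1 and lowest in SNU719, with adjusted p values of 0.00079 for TRIM49 and 0.0014 for TRIM49C between those lines. TRIM64 and TRIM64B behaved alike: TRIM64 stood at 19.9 and 0 in YCCEL1 and TRIM64B at 13.2 and 32.4, and their sum at 33.1 and 32.4. TRIM49B stood at 120 and 82.1 in YCCEL1, at 35.8 and 29.7 in SNU719, and at 22.2 and 26.8 in AGS, so that SNU719 lay above AGS there. TRIM51 stood at 34.1 and 30.4 in YCCEL1, at 7.21 and 10.6 in SNU719, and at 16.6 and 10.8 in AGS.

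TRIM51GP was the one tested member with more transcript in HGC27 than in the CIMP+ lines. It stood in HGC27 at 21.9 and 30.2 in DMSO and at 63.9 and 67.6 in DCB, an increase of 2.5-fold that passed the adjusted p but not the fold limit (log2 difference 1.32, SE 0.433, adjusted p = 0.04). In DCB it stood at 19.9 and 13.3 in YCCEL1, at 3.84 and 0.75 in SNU719, at 2.52 and 1.93 in AGS, and at 0 in SNU16. Of its words, 95.8% are found in no other gene. It made up 95.2% of the summed TRIM value of HGC27 in DCB, and without it the TRIM genes of that line stood near 0.

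MBD3L2, MBD3L2B, MBD3L3 and MBD3L5, which encode MBD3-like proteins reported to join NuRD complexes, were found with DCB in the 3 CIMP+ lines and were at 0 in all libraries of HGC27 and SNU16. MBD3L2 (ENSG00000230522) stood with DCB at 135 and 181 in YCCEL1, at 67.2 and 57.3 in SNU719, and at 155 and 183 in AGS, and its highest DMSO value was 1.06. YCCEL1 and AGS overlapped (log2 difference -0.11, SE 0.373, adjusted p = 0.88), and both lay above SNU719, YCCEL1 by 2.49-fold (log2 difference 1.32, SE 0.373, adjusted p = 0.015). MBD3L3 stood at 68.4 and 59.1 in YCCEL1, at 33.6 and 36.2 in SNU719, and at 18.5 and 35.6 in AGS. The libraries of AGS spread widely there, and YCCEL1 lay 2.42-fold above AGS (log2 difference 1.27, SE 0.341, adjusted p = 0.0084) and not past the threshold above SNU719 (log2 difference 0.85, SE 0.341, adjusted p = 0.076). MBD3L2B stood at 36.4 and 31.4, 16.3 and 9.05, and 35.3 and 11.6 in YCCEL1, SNU719 and AGS. MBD3L5 stood at 26.5 and 13.3, 8.64 and 0, and 12.6 and 6.74 in the same order, and was not called in SNU719 (adjusted p = 0.14). Since 39.7 kb of chromosome 19 holds 5 near-copies, reads may be split between them, and MBD3L4, with no word of its own, was listed at 0 throughout. MBD3L1, the distant member of the family, whose words are all its own, was found in 1 library, a DMSO library of SNU719, at 0.96.

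RFPL4B was the member that passed the adjusted p in all 5 lines. It was at 0 in all 10 DMSO libraries. With DCB it stood at 143 and 141 in YCCEL1, at 33.6 and 19.6 in SNU719, at 58.9 and 54.9 in AGS, at 8.85 and 7.77 in HGC27, and at 2.96 and 2.95 in SNU16. The last values are 3 reads in each library, and those of HGC27 are 9 and 10 reads. The spread behind its p-values was pooled over all groups, and the 10 DMSO libraries, all at 0, added none. The groups with DCB did not overlap, and the adjusted p against DMSO was 3.7e-09, 2.7e-07, 2e-08, 7.3e-06 and 0.0021 in that order of lines (limma). On this scale YCCEL1 lay 5.36-fold above SNU719 (log2 difference 2.42, SE 0.332, adjusted p = 6.3e-05) and 2.48-fold above AGS (log2 difference 1.31, SE 0.332, adjusted p = 0.006). HGC27 lay 2.35-fold above SNU16 (log2 difference 1.23, SE 0.332, adjusted p = 0.0068). An annotated readthrough transcript holds 34.2% of the words of RFPL4B, so part of the value may be that transcript's.

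The other RFPL genes were called in AGS and YCCEL1 except RFPL3. RFPL4A, whose mouse counterpart is an oocyte protein, stood with DCB at 34.2 and 27.6 in YCCEL1, at 7.68 and 15.1 in SNU719, and at 34.5 and 52.0 in AGS, against at most 1.15 in DMSO. Its neighbour RFPL4AL1 stood at 44.1 and 42.9, 24.0 and 16.6, and 58.9 and 34.7, and the sum of both was 31.7 in each library of SNU719. SNU719 had the lowest values of both. For RFPL4AL1 the log2 difference between YCCEL1 and AGS was -0.05 (SE 0.386, adjusted p = 0.96). RFPL2 stood at 25.7 and 30.5 in YCCEL1, at 13.1 and 6.76 in SNU719, at 13.9 and 8.64 in AGS, and at 6.34 and 2.39 in HGC27, where it was at 0 in DMSO (adjusted p = 0.0096). RFPL1 was highest in AGS, at 12.6 and 12.5, against 6.62 and 7.62 in YCCEL1 and 0.96 and 1.51 in SNU719. Exons of RFPL1 and RFPL3 overlap those of antisense genes, and the sources disagree on whether the libraries kept strand, so reads of both strands may be mixed in their values.

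The PRAMEF genes were read with DCB along the whole cluster of chromosome 1, as the plot in chromosomal order shows. Of the 22, 18 were called higher in YCCEL1, 14 in SNU719 and 19 in AGS, and 0 in HGC27 and SNU16. In the CIMP- lines the PRAMEF genes were at 0 in each library with DCB but for PRAMEF12 at 0.98 in 1 library of SNU16. PRAMEF12 (ENSG00000116726), with 99.9% of its words found in no other gene, stood at 117 and 132 in YCCEL1, at 46.1 and 51.3 in SNU719, and at 96.7 and 78.0 in AGS. The lines did not overlap, YCCEL1 lay 2.53-fold above SNU719 (log2 difference 1.34, SE 0.359, adjusted p = 0.011), and its difference from AGS did not pass the threshold (log2 difference 0.51, SE 0.359, adjusted p = 0.3).

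**Figure D2:**
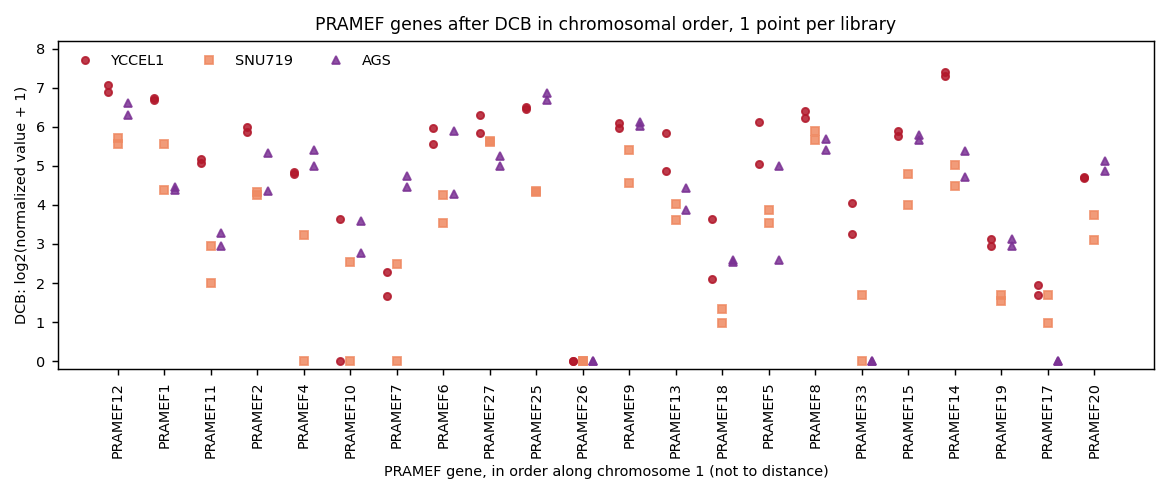
Values of the 22 PRAMEF genes with DCB in YCCEL1, SNU719 and AGS, as log2(normalized value + 1), with 1 point per library and the genes in their order along chromosome 1 (not to distance). SNU719 is mostly the lowest, and AGS stands above the other lines at PRAMEF7.

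Members of the cluster differed in which line was highest. PRAMEF14 stood at 167 and 156 in YCCEL1, at 31.4 and 21.4 in SNU719, and at 25.2 and 40.4 in AGS, so that YCCEL1 lay 6.03-fold above SNU719 (log2 difference 2.59, SE 0.335, adjusted p = 3.6e-05) and 4.93-fold above AGS (log2 difference 2.30, SE 0.335, adjusted p = 7.7e-05). PRAMEF1 was likewise higher in YCCEL1, at 105.3 and 102.3, than in AGS, at 19.8 and 21.0 (4.89-fold, log2 difference 2.29, SE 0.473, adjusted p = 0.0014). PRAMEF25 stood at 101.4 and 115 in AGS and at 90.2 and 86.4 in YCCEL1, a difference not past the threshold (log2 difference of YCCEL1 to AGS -0.29, SE 0.294, adjusted p = 0.49), and lower in SNU719, at 19.1 and 19.5. Of the words of PRAMEF25, 96.3% are also in PRAMEF26, which was listed at 0 in all 20 libraries. PRAMEF9 was likewise lowest in SNU719, with 67.3 and 61.9 in YCCEL1, 41.3 and 22.6 in SNU719, and 69.0 and 63.5 in AGS. YCCEL1 and AGS overlapped there (log2 difference -0.035, SE 0.335, adjusted p = 0.98). PRAMEF8 stood at 74.1 and 83.7, 58.8 and 49.9, and 41.5 and 50.4, and YCCEL1 passed the threshold neither against SNU719 (log2 difference 0.53, SE 0.302, adjusted p = 0.21) nor against AGS (log2 difference 0.77, SE 0.302, adjusted p = 0.058).

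PRAMEF7 and PRAMEF33 went furthest in opposite directions. PRAMEF7 stood at 25.8 and 21.0 in AGS, against 2.19 and 3.87 in YCCEL1 and 0 and 4.59 in SNU719, and was the 1 member called lower in YCCEL1 than in AGS (log2 difference -2.62, SE 0.561, adjusted p = 0.0018). PRAMEF8 is its closest copy, and the sum of both stood at 76.3 and 87.6 in YCCEL1, at 58.8 and 54.5 in SNU719, and at 67.3 and 71.3 in AGS, so the sum did not show the excess of AGS. PRAMEF33 stood at 15.5 and 8.57 in YCCEL1 and was listed at 0 in both DCB libraries of AGS (adjusted p = 1.3e-05). Its closest copy PRAMEF10, which holds 68.8% of its words, stood at 0 and 11.4 in YCCEL1 and at 10.9 and 5.78 in AGS, so the sum of the pair was above 0 in both lines. The calls of PRAMEF33 in YCCEL1 alone and of PRAMEF7 and PRAMEF10 in AGS alone may therefore depend on how reads were assigned to copies, which was not tested. PRAMEF4 stood at 31.1 and 41.4 in AGS and at 27.6 and 26.7 in YCCEL1, but at 0 and 8.29 in SNU719. PRAMEF5 and PRAMEF6 stood in AGS at 5.05 and 30.8 and at 58.0 and 18.3, with sums of 63.1 and 49.1.

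**Figure D3:**
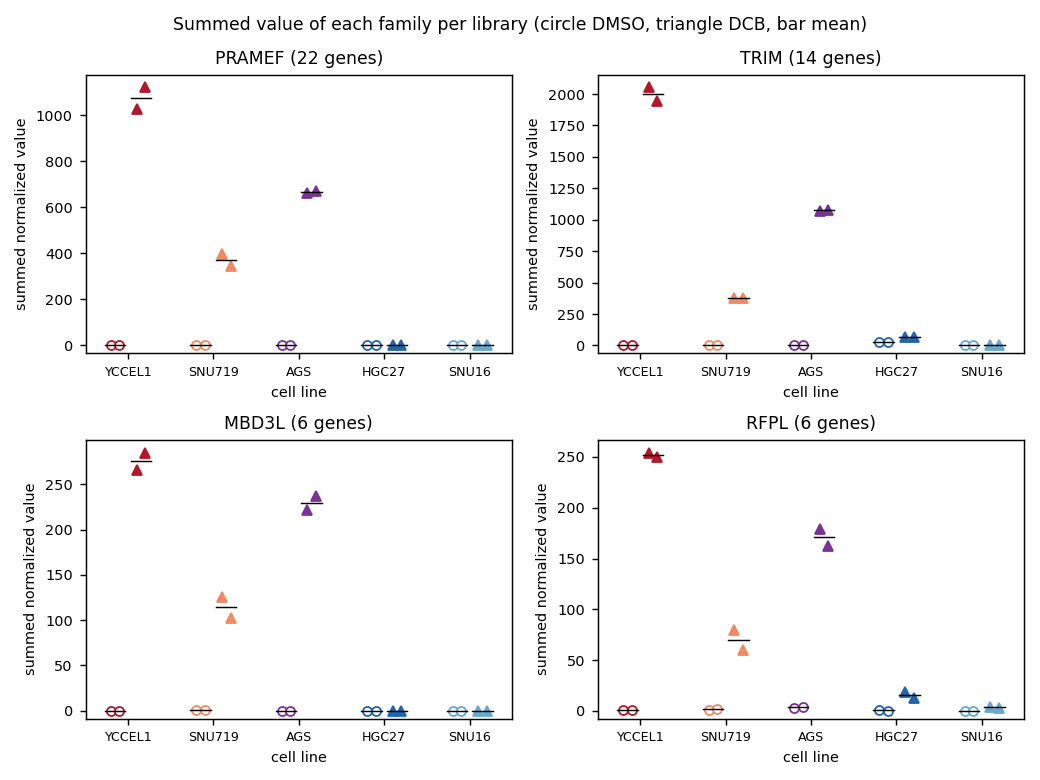
Summed normalized value of each family (1 panel each) per library, by cell line, with open circles for DMSO, filled triangles for DCB and bars at the mean of 2 libraries. In each panel the DCB libraries fall in the order YCCEL1, AGS, SNU719, and HGC27 and SNU16 lie near 0 apart from the TRIM sum of HGC27.

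Summed by family, the 3 CIMP+ lines fell in one order with DCB, YCCEL1 above AGS above SNU719. The PRAMEF sum stood at 1029 and 1120 in YCCEL1, at 663 and 673 in AGS, and at 397 and 345 in SNU719. The TRIM sum stood at 2053 and 1948, 1068 and 1080, and 376 and 377, and the RFPL sum at 254 and 249.6, 179 and 163, and 79.3 and 59.5. The MBD3L sum stood at 266 and 285 in YCCEL1, at 221 and 237 in AGS, and at 126 and 103 in SNU719. No family's libraries overlapped between lines, and the mean ratio of YCCEL1 to SNU719 was 5.31 for TRIM, 3.63 for RFPL, 2.89 for PRAMEF and 2.41 for MBD3L. The ratio of YCCEL1 to AGS ran from 1.20 for MBD3L to 1.86 for TRIM. Single genes weighed heavily in the smaller families. RFPL4B made up 56.5% of the RFPL sum in YCCEL1 and 33.3% in AGS, and MBD3L2 57.3% and 73.7% of the MBD3L sum. The order is one of sums and not of each gene. RFPL4A, RFPL4AL1, RFPL1 and MBD3L2 had higher means in AGS, and RFPL4B, RFPL2, MBD3L2B, MBD3L3 and MBD3L5 in YCCEL1. Over all 48 genes the sum was 3601 and 3602 in YCCEL1, 2131 and 2152 in AGS, 979 and 884 in SNU719, 87.0 and 81.8 in HGC27, and 3.95 and 6.10 in SNU16. These sums made up 0.0418% to 0.0419% of the library total in YCCEL1, 0.0268% to 0.0271% in AGS and 0.0109% to 0.0121% in SNU719.

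Gene by gene, 31 of the 48 passed the adjusted p as higher in DCB-treated YCCEL1 than in DCB-treated SNU719, where 15% of all genes did, and 14 were called (3.33%). None passed in the other direction, where 16.8% of all genes did. AGS was higher than SNU719 for 19 members (19.7%) and lower for none (18.8%), and 6 were called (5.97%). YCCEL1 was higher than AGS for 13 members (18.5%) and lower for PRAMEF7 (21.1%), and 5 were called higher (5.55%) and 1 lower (7.06%). The median log2 difference over the 48 genes was 1.45, 0.67 and 0.58 in these 3 comparisons, against -0.04, -0.03 and 0 over all tested genes. HGC27 was higher than SNU16 for 3 members by the adjusted p (26.3%), RFPL2, RFPL4B and TRIM51GP, of which RFPL2 and TRIM51GP were called (12.4%), or 1 gene without DCB replicate 1 of HGC27. These comparisons share their DCB libraries and are not independent of one another.

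**Figure D4:**
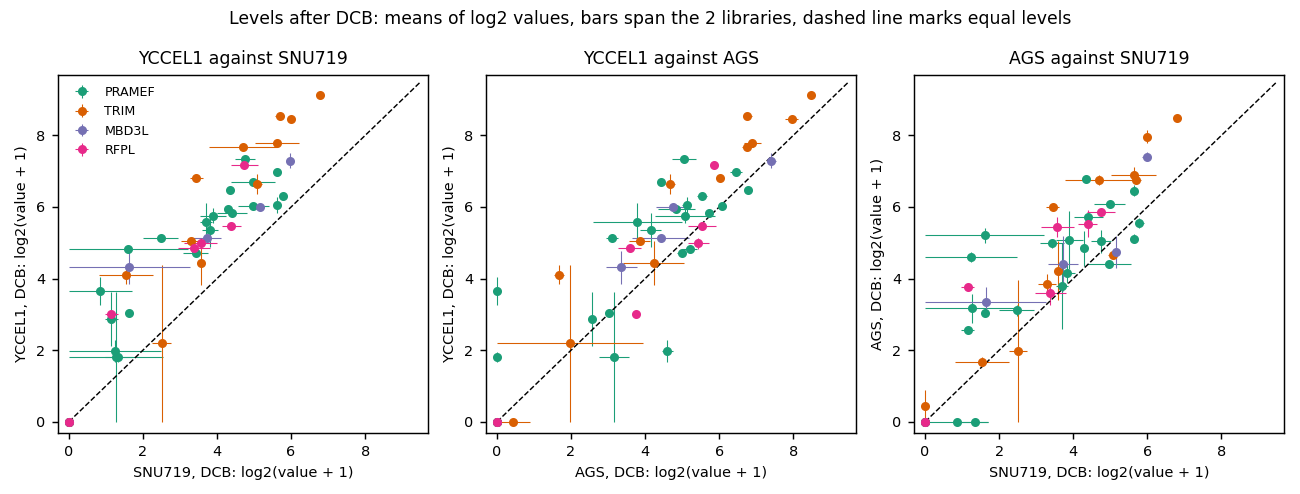
Levels of the member genes with DCB in pairs of CIMP+ lines, as means of log2(normalized value + 1), with bars that span the 2 libraries, colours for families and a dashed line at equal levels. Most points lie above the line in YCCEL1 against SNU719, and they lie nearer to it in YCCEL1 against AGS, where PRAMEF7 is below.

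Of the 34 members above 0 in both DCB libraries of all 3 CIMP+ lines, both libraries of YCCEL1 lay above both of the other lines for 21 genes, those of AGS for 4 and those of SNU719 for 0, against 20.6%, 25.8% and 20.1% of the 18400 genes above 0 in these 6 libraries. The full order YCCEL1, AGS, SNU719 without overlap held for 11 of them (5.84% of all genes). AGS lay above SNU719 without overlap for 22 (38%) and below it for 2 (37.3%). The pattern of levels across members was alike in the lines: over the 48 genes the correlation of the mean log2 levels was 0.937 between YCCEL1 and SNU719, 0.91 between YCCEL1 and AGS and 0.892 between SNU719 and AGS. The 2 libraries of a line, taken singly, correlated at 0.936 in YCCEL1, 0.874 in SNU719 and 0.934 in AGS. Single libraries are noisier than the means used between lines, so the 2 kinds of correlation are not measured alike. Both include the members at or near 0 in every line. All these correlations are descriptions, since the genes share libraries and, in part, sequence.

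Many members share transcript sequence with a copy. The shares of words given here are over whole transcripts in words of 76 bases, the read length the study states. The study describes libraries of transcript ends and the submitters' protocol whole poly(A) transcripts, and for end libraries the shares at the ends would matter instead, which were not computed. The median member had 37.3% of its transcript words found in no other gene, 14 members had over 80% and 7 under 20%. Of 15 pairs of members that were each other's closest copy, 11 gave 32 cases of a pair in a line with both above 0. In 22 of those the 2 genes moved in opposite directions between libraries, and the median relative difference between libraries was 28.8% for single genes and 11.1% for the pair's sum. The sum differed by a smaller share than both of its genes in 15 of the 32. A sum also holds more reads than either gene, and how much of the difference between libraries comes from the assignment of reads was not tested. Members that share few words were called too: of the 14 members with over 80% of their own words, 9 were called higher in YCCEL1, 5 in SNU719, 8 in AGS, 1 in HGC27 and 0 in SNU16. Of the 7 with under 20%, 5, 4 and 5 were called in the CIMP+ lines. The shares of all genes called higher were 7.99%, 6.38%, 9.02%, 4.95% and 2.31% in YCCEL1, SNU719, AGS, HGC27 and SNU16.

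Members with and without the motif in their window were called. Of the 14 genes with the motif, 11 were called higher in YCCEL1 (7.99% of all genes), 10 in SNU719 (6.38%) and 12 in AGS (9.02%). None was in HGC27 (4.95%) or SNU16 (2.31%). Of the 26 with a window and no match, 18, 15 and 18 were called in the CIMP+ lines and 2 in HGC27. Of the 8 with no window, 8, 5 and 7 were called in the CIMP+ lines. The share called was not tested between these sets, since the members were chosen by name and many are copies.

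Inside the clusters lay 106 other rows of the table, most of them pseudogenes, of which 20 were tested. Of these, 13 were called higher in YCCEL1 (7.99% of all genes), 8 in SNU719 (6.38%) and 10 in AGS (9.02%). None was in HGC27 (4.95%) or SNU16 (2.31%), and none was called lower in any line (0.135% to 0.636%). Most of the 20 were at 0 in DMSO, so they had passed the filter on summed values largely through the DCB libraries. Their share called is raised by that filter and is not a rate for all 106 rows. Of 20 protein-coding rows among the 106, 3 were tested. These, HNRNPCL1, HNRNPCL2 and HNRNPCL3, are copies of an RNA-binding protein gene that lie among the PRAMEF genes. HNRNPCL3 stood with DCB at 75.8 and 61.7 in YCCEL1, at 22.6 and 7.46 in SNU719, and at 25.6 and 31.2 in AGS. It thus had its highest values in YCCEL1, as did most members around it.

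DUX4 itself did not have the order of lines of the members' sum. It was listed at 0 in all DMSO libraries and stood with DCB at 1.30 and 6.09 in YCCEL1, at 49.2 and 19.6 in SNU719, and at 129 and 144 in AGS, with adjusted p values of 0.0092, 6.2e-06 and 1.3e-07. It was at 0 in all libraries of HGC27 and SNU16. YCCEL1, the line with the highest sum of members, thus had the lowest DUX4 of the 3 lines in which DUX4 was found. DUX4 lies in a repeat with near-identical copies, and how its reads were assigned is not given in the sources used here.

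**Figure D5:**
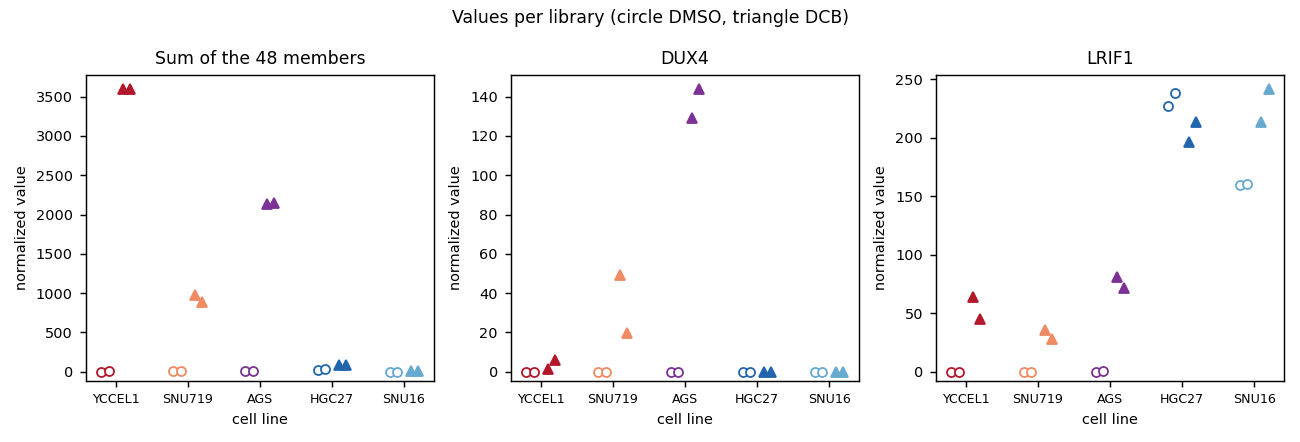
Normalized values per library by cell line, with open circles for DMSO and filled triangles for DCB, for the sum of the 48 members, for DUX4 and for LRIF1, a silencing factor of the DUX4 repeat. The members' sum is highest in YCCEL1 and DUX4 in AGS, and LRIF1 in DMSO is near 0 in YCCEL1, SNU719 and AGS and above 150 in HGC27 and SNU16.

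Most of the tested transcription factors of this stage rose in the same 3 lines. Of a list of 11 DUX4-type factors, 9 of them tested, 7 passed the adjusted p as higher in YCCEL1, 7 in SNU719, 8 in AGS, 1 in HGC27 and 0 in SNU16, and none as lower. Of all genes, 14.6%, 13.5%, 18.5%, 14.7% and 4.5% passed as higher in these lines, and 6.93%, 7.64%, 9.13%, 9.03% and 2.34% as lower. LEUTX, a homeobox activator of the cleavage embryo, was at 0 in DMSO and stood with DCB at 96.9 and 98.7 in YCCEL1, at 13.9 and 24.9 in SNU719, and at 21.9 and 20.8 in AGS, with its peak in YCCEL1 like most members. ZSCAN4, a zinc-finger factor of the same stage, already stood in DMSO at 17.1 and 18.3 in YCCEL1, at 6.8 and 5.1 in SNU719, and at 17.3 and 10.3 in AGS. With DCB it stood at 65.8 and 84.6, 89.0 and 66.8, and 213.5 and 218.8, with its peak in AGS like DUX4 (log2 differences to DMSO 2.02, 3.50 and 3.92, adjusted p = 0.014, 0.00029 and 7.9e-05). Of 9 other DUX4-induced genes, 8, 8 and 9 passed as higher in the CIMP+ lines, 4 in HGC27 and 1 in SNU16. They differed in which line was highest. H3Y1, a histone variant, stood with DCB at 1514 and 1507 in YCCEL1, at 85.5 and 129.7 in SNU719, and at 329.7 and 314.8 in AGS. ALPG, an alkaline phosphatase, stood at 211.9 and 187.6, 192.1 and 208.1, and 322.1 and 307.1 in these lines, and ZNF280A, a zinc-finger gene, at 5.5 and 7.6, 8.6 and 7.5, and 37.8 and 32.7. KDM4E and RBP7 were also highest in AGS of the 3 lines, and H3Y2, CCNA1 and KHDC1L, like H3Y1, in YCCEL1. SLC34A2 overlapped between YCCEL1, at 246.4 and 251.9, and AGS, at 248.5 and 235.0. RBP7 stood with DCB at 19.0 and 20.2 in AGS and at 23.9 and 19.6 in HGC27, where DUX4 was at 0. It did not pass in YCCEL1 or SNU719 (adjusted p = 0.75 and 0.57, limma). ZSCAN4 and ZNF280A thus had their peak in the line where DUX4 had its own. ALPG was highest in AGS of the CIMP+ lines only. In SNU16, where DUX4 was at 0, ALPG stood at 187.9 and 179.0 in DMSO and at 329.8 and 324.0 with DCB.

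Of 8 silencers of the DUX4 repeat, 2, 1 and 3 passed as higher and 3, 5 and 1 as lower with DCB in YCCEL1, SNU719 and AGS, 6 as higher and 1 as lower in HGC27, and 1 as higher in SNU16. Of all genes, 14.6%, 13.5%, 18.5%, 14.7% and 4.5% passed as higher in these lines, and 6.93%, 7.64%, 9.13%, 9.03% and 2.34% as lower. LRIF1, a partner of the silencer SMCHD1, was singled out after its values were seen. In DMSO it was at 0 in all 4 libraries of YCCEL1 and SNU719 and at 0 and 0.73 in AGS, but at 226.9 and 237.9 in HGC27 and at 159.5 and 160.0 in SNU16. Across all tested genes, 8 had at most 1 in those 6 DMSO libraries and at least 100 in the other 4. With DCB it stood at 64.1 and 44.7 in YCCEL1, at 35.5 and 27.9 in SNU719, and at 81.0 and 71.1 in AGS (adjusted p = 6.9e-09, 4.5e-08 and 5.3e-09), and its differences in HGC27 and SNU16 did not pass the threshold (adjusted p = 0.75 and 0.4). SMCHD1 itself did not divide the lines this way: its log2 difference was -0.52 in YCCEL1 (adjusted p = 0.0075), -0.47 in SNU719 (0.013), -0.02 in AGS (1), 0.67 in HGC27 (0.001) and -0.08 in SNU16 (0.84), with an SE of 0.122 in each. LRIF1 was thus missing before treatment in those lines where the members appeared with DCB, and it was higher with DCB there, as the members were. The part of LRIF1 in the members' values was not tested.

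Lists of partner genes gave counts to be read against the shares of all genes that passed in YCCEL1, SNU719, AGS, HGC27 and SNU16, which were 14.6%, 13.5%, 18.5%, 14.7% and 4.5% as higher and 6.93%, 7.64%, 9.13%, 9.03% and 2.34% as lower. Of 13 NuRD subunits, the complex that MBD3L proteins join, 1, 0 and 1 passed as higher and 3, 5 and 4 as lower in YCCEL1, SNU719 and AGS, 4 as higher and 2 as lower in HGC27, and 0 and 2 in SNU16. Of 10 subunits and receptors of CUL2 ubiquitin ligases, with which the related PRAME works, 1, 2 and 3 passed as higher and 1, 4 and 3 as lower in the CIMP+ lines, 3 and 0 in HGC27, and 1 and 1 in SNU16. Of 4 DPPA factors, which are markers of pluripotent cells and the early embryo, 2, 1, 4, 1 and 0 passed as higher in the 5 lines and none as lower. Of 5 epithelial markers, 2 passed as higher in AGS, 4 in HGC27 and none in the others, and the summed level of the list went from 31498.6 to 31675.5 in DMSO to 48955.5 to 51087.6 in DCB in AGS. Of 7 blood, endothelial and fibroblast markers, 2 passed as higher in each CIMP+ line and 1 in HGC27. Their summed level went from 5.5 to 29.1 in DMSO to 53.5 to 71.2 in DCB in YCCEL1, from 23.8 to 38.0 to 111.5 to 113.6 in SNU719, and from 269.1 to 286.9 to 1944.3 to 1998.5 in AGS, mostly from COL1A1. The leukocyte genes PTPRC and CD3E did not exceed 4.6 in those lines. Their part in the members' values was not tested.

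The genes whose values across the 20 libraries were most like the members' sum were named by Pearson's r, as a description over libraries that fall into those with and without DCB in CIMP+ lines. They were SLC25A31 (r = 0.969), an ADP/ATP carrier of the testis, TRIM53CP (0.965), H3Y1 (0.963), TEX101 (0.958), a germ cell surface protein, NTSR1 (0.955), the neurotensin receptor, POMC (0.953), the precursor of corticotropin, CCNA1 (0.949), a germline cyclin, AP002383.3 (0.946), TPRX1 (0.937), a homeobox factor of the cleavage embryo, and H3Y2 (0.936). H3Y1, H3Y2, CCNA1 and TPRX1 also stand in the lists of DUX4-related genes above.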

How the data were processed

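Gene values of 20 libraries were taken from the table of the study. As deposited by the authors, its signal is a normalized estimated count per gene, not a whole count: 36.35% to 44.54% of the low values in a library were whole multiples (tolerance 0.02) of that library's step, and 73.4% of the 278 member values above 0. The study's methods describe stranded 3′ QuantSeq libraries on GRCh38, and the submitters' processing notes list GRCh37, DESeq2 1.14.1, STAR 2.5.2b and featureCounts 1.5.1, with no role or order. The coordinates are those of GRCh38 (92.6% of 60064 genes have the same start and end in GENCODE). How reads matching several copies were counted is not given in the sources used here.

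Values were tested as log2(value + 1) with limma 3.58.1 in R 4.3.3 (lmFit, then eBayes with trend) over all 10 groups, keeping 27350 genes with a summed value above 10, with Benjamini-Hochberg adjustment over them. This scale understates the change of low genes, and no fold is given against a group listed at 0. The spread of a gene is pooled over all 10 groups, so a group with both libraries at 0 adds none. The SE of members at 0 in most groups may therefore be too small for the groups with reads. The CIMP difference is the mean DCB response of YCCEL1, SNU719 and AGS minus that of HGC27 and SNU16. The script was tested on simulated data. Members and gene lists were chosen with earlier results of these data known. By rule, the up to 5 members per family with the highest mean are given per library, mostly with DCB in the CIMP+ lines. So are those called in a CIMP- line or lower in any line. Members found in DMSO were to be given as well, but RFPL3 is not given per library and PRAMEF1 only in part. Not every DMSO value is shown. Other genes given per library, such as TRIM48, TRIM64, PRAMEF4, PRAMEF7 and HNRNPCL3, were chosen after their values were seen. Alternatives varied the pseudocount, filter, fold limit, scaling, variance model, line subset, replicate block and libraries. Depth per library is estimated from the step.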

Additional observations from a re-analysis of the deposited data

Results flagged for a closer look

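The DCB response of the members differed between these CIMP+ and CIMP- lines by a test of the difference itself. As larger in the mean of YCCEL1, SNU719 and AGS than in that of HGC27 and SNU16, 35 of the 48 genes were called (3.68% of all genes). The error of that test is the spread of libraries within groups and leaves out the spread between lines. The calls therefore hold for these libraries and not for CIMP+ and CIMP- lines in general. Since 3 lines stand against 2, CIMP status and other properties of the lines cannot be told apart.

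A signal also appeared among 30 rows that carry the same name starts but are not annotated as protein coding, mostly pseudogenes. Of these, 16 were tested, and 10 were called higher with DCB in YCCEL1 (7.99% of all genes), 9 in SNU719 (6.38%) and 8 in AGS (9.02%). In HGC27 2 were called higher (4.95%), and in SNU16 none was (2.31%). Some of them lie inside the clusters and were counted there too, so these counts overlap with those given above. TRIM53AP, an unprocessed pseudogene named after its values were seen, stood with DCB at 238.4 and 228.6 in YCCEL1, at 28.8 and 33.9 in SNU719, and at 78.2 and 102.0 in AGS.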

How the results depend on the processing

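Over 31 alternatives the number of members called higher with DCB was 33 to 39 for YCCEL1, 19 to 33 for SNU719 and 28 to 38 for AGS, and over 30 alternatives the CIMP difference gave 28 to 38. No member was called lower in any line under any of them. With a pseudocount of 5, SNU719 had 19, HGC27 0, YCCEL1 against SNU719 9, YCCEL1 against AGS 2 and HGC27 against SNU16 1. With a pseudocount of 0.5, with a log2 limit of 1 and with none, SNU16 had 1. With a limit of 1, YCCEL1 against SNU719 had 31, YCCEL1 against AGS 13 and AGS against SNU719 19, and with none 31, 14 and 19. Quantile normalization gave 1 for HGC27 and 1 for HGC27 against SNU16, and moved the median of all genes by -0.17, -0.13 and -0.19 (log2) in YCCEL1, SNU719 and AGS. HGC27 fitted alone gave 1. Leaving out each library in turn gave 37 to 39 in YCCEL1, 30 to 32 in SNU719, 35 to 37 in AGS, 1 to 2 in HGC27, 0 in SNU16, 35 to 37 for the CIMP difference, 12 to 17 for YCCEL1 against SNU719, 4 to 8 for YCCEL1 against AGS, 5 to 8 for AGS against SNU719 and 1 to 2 for HGC27 against SNU16. The 1 in HGC27 and in HGC27 against SNU16 came without DCB replicate 1 of HGC27. The cause of these changes was not tested. Equal replicate numbers did not mark pairs: deviations of same-numbered libraries correlated at -0.039 to 0.025 over 14361 genes. With the replicate number as a block the counts were 37, 30, 37, 2 and 0 in the lines, 35 for the CIMP difference, and 14, 6, 6 and 2 between lines, and all calls were shared with the fit without it. TMM factors lay between 0.967 and 1.03. Values of 1 to 3 reads, as in HGC27 and SNU16, are at the limit of this depth, so a gene at 0 there was not detected, which does not show it to be absent.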

Other observations

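Of 63 further protein-coding TRIM genes, 61 were tested, and 7 were called higher with DCB in YCCEL1, 4 in SNU719, 7 in AGS, 8 in HGC27 and 1 in SNU16, where 7.99%, 6.38%, 9.02%, 4.95% and 2.31% of all genes were. The difference from the members was not tested. PRAME, the gene after which the PRAMEF family is named, stood in HGC27 at 501 and 391 in DMSO and at 882 and 899 in DCB, while the PRAMEF genes stood at 0 in that line with DCB. DPPA3, an oocyte and early embryo factor outside the 4 families, was at 0 in DMSO and stood with DCB at 54.1 and 49.5 in YCCEL1, at 4.8 and 3.8 in SNU719, and at 10.1 and 19.3 in AGS.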
